A study of Danio rerio with 8 samples.

Results

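Potassium channel genes were taken as every gene whose symbol starts with kcn followed by a letter, which gave 118 of the 25725 genes listed. By symbol they were 49 voltage-gated channel genes, 11 genes of subunits that attach to voltage-gated channels (Kv auxiliary subunits), 27 inward rectifiers, 21 two-pore channels, 7 calcium-activated channels with 1 attached subunit, and 2 sodium-activated channels. They were compared between 4 samples of zebrafish (Danio rerio) larvae given only the solvent DMSO and 4 samples given TCDD, a dioxin that binds the aryl hydrocarbon receptor. Exposure started at 2 hours postfertilization in both groups and the larvae were 5 days old, with the tissue given as heart. The labels give no strain, TCDD dose, number of larvae per sample or clutch, so the spread behind each p value is that among the samples at hand, which may be technical.

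Potassium channels let potassium leave the cell and so set the resting potential and end the action potential. Voltage-gated channels open on depolarization, inward rectifiers hold the resting potential, two-pore channels carry a background leak, and calcium-activated channels open as calcium enters. In the zebrafish heart the ether-a-go-go related channel encoded by kcnh6a carries a repolarizing current, and its loss disturbs the heartbeat. Other members serve neurons, skin ionocytes, pigment cells and glands.

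The 8 libraries held 14048563 to 15183023 estimated counts, of which potassium channel genes took 0.032% to 0.0587%. The smallest level taken as detected was 3 counts, which were 0.198 to 0.214 CPM (the count divided by the library total, scaled to the same total in each library). All other CPM in the text, except that of the test filter, are scaled by TMM factors as well. The exposure marker cyp1a, a cytochrome P450 gene induced through the aryl hydrocarbon receptor, was at 101 to 164 CPM in DMSO and 6173 to 9744 CPM in TCDD. The material was not heart muscle alone. Summed markers of cardiomyocytes were at 1263 to 2508 CPM, against 34479 to 71476 CPM for liver, 11256 to 20181 CPM for skeletal muscle, 898 to 1749 CPM for neurons and 895 to 1471 CPM for ionocytes. None of the matched markers in these 5 lists was at 0 in all libraries. Sums for skin epithelium (9371 to 19076 CPM), exocrine pancreas (5786 to 13200 CPM) and cartilage (5264 to 9841 CPM) were also above that of cardiomyocytes. Those for intestine (3138 to 5554 CPM) and erythrocytes (2517 to 7813 CPM) were as well. The part of heart cells in the channel levels was not tested. Summed photoreceptor and lens markers varied widely, at 524 to 2200 CPM in DMSO and 41.2 to 1354 CPM in TCDD, with 0 of 11 called. The log2 fold change of TCDD against DMSO was negative for all 11, with a median of -0.82. On the second principal component of all genes, which held 28.5% of the variance, DMSO 1 (59.9) and TCDD 2 (28.95) stood apart from the other 6 libraries (-25.04 to -0.1771). In bulk samples fewer cells of a type and less RNA per cell cannot be told apart.

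Below, TMM-scaled CPM is given as mean ± SD over n = 4 samples, and the log2 fold change is TCDD against DMSO ± SE. Adjusted p values come from edgeR's quasi-likelihood test with Benjamini-Hochberg adjustment over all genes tested, and a gene is said to have risen or fallen at an adjusted p under 0.05. Of the 118 genes 82 had enough counts to test (at least 0.694 CPM before TMM scaling in 4 libraries). None of the 82 passed with all libraries of a group below that level. The other 36 did not exceed 1.05 CPM in any library.

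Of the 82 tested potassium channel genes 5 rose in TCDD and 0 fell. They were the inward rectifiers kcnj2a, kcnj1a.4 and kcnj1a.6, the voltage-gated subunit gene kcnf1a and the two-pore channel gene kcnk1a. That is 6.1% of those tested, where 5.72% of all 20522 genes tested were called in either direction, 2.99% higher and 2.73% lower. The share of potassium channel genes called was therefore close to that of all genes. The 5 calls were all higher, those of kcnj1a.4 and kcnj1a.6 did not hold in all alternatives, and the direction of the set was not tested. At an unadjusted p under 0.05 there were 12 members (14.6%), 9 higher and 3 lower, against 22% of all genes, and each of the 12 is described below. DESeq2 called 6 members higher (9.81% of all genes were called) and limma-voom 4 (5.15% of all genes), and both called 0 members lower. The median log2 fold change over the 82 was 0.10, against 0.00 over all genes. Without DMSO 1 the median over members was 0.03, against -0.01 over all genes, and without DMSO 2 it was 0.14, against 0.01.

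**Figure D1:**
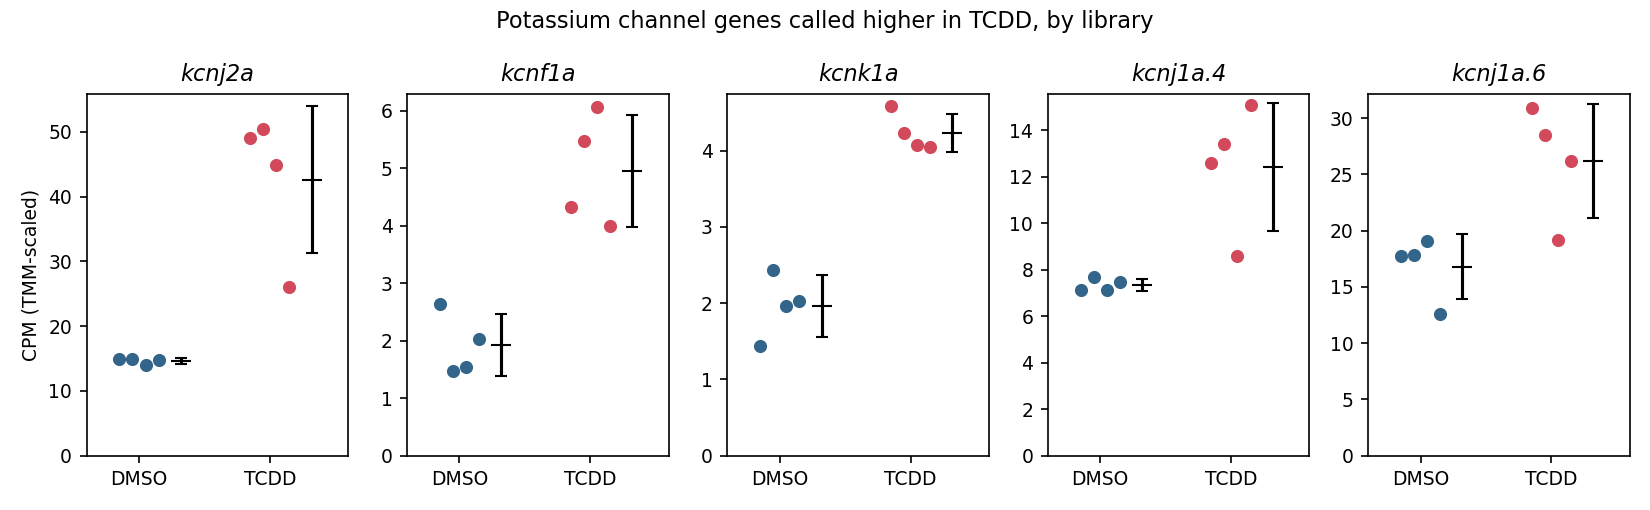
CPM (TMM-scaled) of the 5 potassium channel genes called higher in TCDD, 1 point per library, with the mean ± SD (n = 4) beside the points. Every TCDD library lies above every DMSO library in each panel, by the smallest margin in kcnj1a.6 (19.2 against 19.1 CPM).

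The largest change was that of kcnj2a (NCBI gene 564522), which encodes a strong inward rectifier that holds the resting potential of heart and skeletal muscle cells. Its level was 14.9, 15, 14 and 14.7 CPM in DMSO libraries 1 to 4 and 49.1, 50.5, 44.9 and 26.1 CPM in TCDD libraries 1 to 4. The DMSO libraries differed little from each other, TCDD 4 was lower than the other 3 TCDD libraries, and the groups did not overlap. The mean rose 2.91-fold, from 14.6 ± 0.464 to 42.6 ± 11.3 CPM (1.54 ± 0.18, adjusted p = 0.00098). In length-scaled levels (TPM as deposited) kcnj2a ranked 18 among the 118 genes in DMSO, at a mean of 2.99 TPM, and 5 in TCDD, at 10.6 TPM. No marker of the muscle types in which kcnj2a acts was called higher. Of 12 cardiomyocyte markers 2 fell, the myosin genes myl7 (-0.99 ± 0.22, adjusted p = 0.0227) and myh7 (-0.48 ± 0.12, adjusted p = 0.0340), and none rose. That is 16.7% called, against 5.72% of all genes tested. At an unadjusted p under 0.05, 6 were lower and 0 higher (50%, against 22% of all genes). DESeq2 called 3 lower and limma-voom 2, where they called 9.81% and 5.15% of all genes. The log2 fold change was negative for 10 of the 12 markers and positive for 2, with a median of -0.42. The summed level of the 12 markers was 1728 to 2508 CPM in DMSO and 1263 to 1908 CPM in TCDD. In DMSO actc1a (786 ± 164 CPM) and ttn.2 (419 ± 32.3 CPM) were the largest parts of that sum, and neither was called. Of 14 skeletal muscle markers none was called, with a summed level of 11763 to 20181 CPM in DMSO and 11256 to 15379 CPM in TCDD. The calls of both myosin genes ended when DMSO 3 or TCDD 3 was left out. For myl7 leaving out DMSO 1, alone or with TCDD 2, also ended the call, and for myh7 so did leaving out TCDD 1 or TCDD 4 and scaling by library size alone. The part of muscle content in the kcnj2a values was not tested.

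No rise was called in the paralogs of kcnj2a or in its neighbour. The paralog kcnj2b had 0 to 2 counts in every library, below the floor of 3 counts. The inward rectifier gene kcnj16 is the next protein-coding gene to kcnj2a in the GRCz12tu gene table. It was at 2.58 to 5.32 CPM in DMSO and 2.83 to 5.74 CPM in TCDD (log2 fold change -0.07, 95% interval -0.63 to 0.50, adjusted p = 0.912), so the groups overlapped. Of the other genes of the same strong rectifier type, kcnj12b was at 4.22 ± 1.1 and 5.2 ± 1.01 CPM (0.30 ± 0.22, adjusted p = 0.459), and kcnj12a and kcnj4 had too few counts to test.

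The 6 genes kcnj1a.1 to kcnj1a.6 lie side by side, followed by kcnj5, in the GRCz12tu gene table. They encode copies of the renal outer medullary type of inward rectifier, which secretes potassium across epithelia and in zebrafish is found in skin ionocytes. Together they were at 65.9, 60.8, 69.1 and 52.5 CPM in DMSO libraries 1 to 4 and at 103, 102, 65.4 and 98.2 CPM in TCDD libraries 1 to 4. The sum in TCDD 1, TCDD 2 and TCDD 4 was above every DMSO library, and TCDD 3 was within the DMSO range. Reads of such close copies can be counted at the wrong copy, so the values of single copies are less certain than their sum.

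**Figure D2:**
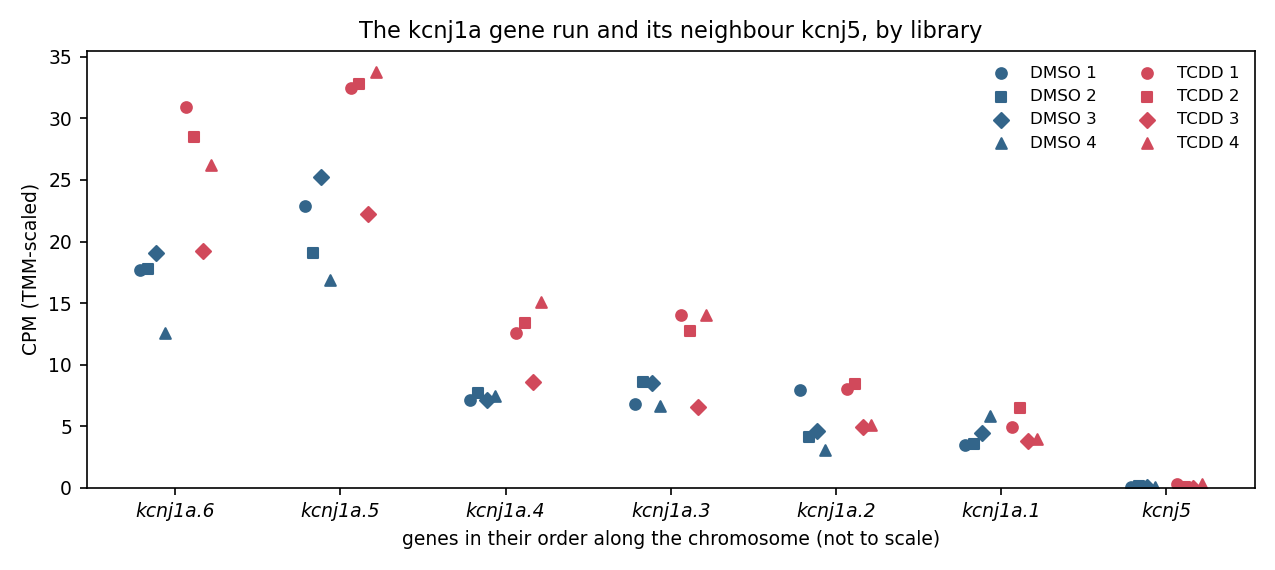
CPM (TMM-scaled) of the 6 kcnj1a genes and of kcnj5, in their order along the chromosome and not to scale, 1 symbol per library. TCDD libraries 1, 2 and 4 lie above the DMSO libraries for kcnj1a.3 to kcnj1a.6, while TCDD 3 lies near or within them, and kcnj5 is close to 0.

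Within the run, kcnj1a.4 and kcnj1a.6 passed the test. The values of kcnj1a.4 were 7.11, 7.68, 7.13 and 7.47 CPM in DMSO and 12.6, 13.4, 8.6 and 15.1 CPM in TCDD, a rise of 1.69-fold (0.76 ± 0.17, adjusted p = 0.022). Those of kcnj1a.6 were 17.7, 17.8, 19.1 and 12.6 CPM in DMSO and 30.9, 28.5, 19.2 and 26.2 CPM in TCDD, a rise of 1.56-fold (0.64 ± 0.17, adjusted p = 0.047). In both genes the lowest TCDD value was that of TCDD 3, and the groups did not overlap. Both calls were lost on leaving out any 1 of TCDD 1, TCDD 2, TCDD 4 and DMSO 3, and on leaving out DMSO 1 together with TCDD 2. That of kcnj1a.6 was also lost without DMSO 1 or DMSO 4, with the replicate number as a block (adjusted p = 0.0561), without robust estimation (0.0533) and in limma-voom (0.0625). Without DMSO 2 it held with an adjusted p just under the threshold (0.05 after rounding).

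The most abundant copy, kcnj1a.5, was at 22.9, 19.1, 25.2 and 16.9 CPM in DMSO and 32.5, 32.8, 22.2 and 33.8 CPM in TCDD. Its groups overlapped through TCDD 3 and it did not pass (0.53 ± 0.16, adjusted p = 0.0826). The copy kcnj1a.3 was at 6.79, 8.56, 8.53 and 6.63 CPM in DMSO and 14, 12.7, 6.6 and 14 CPM in TCDD (0.63 ± 0.22, adjusted p = 0.122). Without TCDD 3, all 4 copies from kcnj1a.3 to kcnj1a.6 were called, with adjusted p = 0.0151 for kcnj1a.3 and 0.0363 for kcnj1a.5. The call of kcnj1a.5 was also made in DESeq2 (adjusted p = 0.0373), with library size alone (0.0365) and with length offsets (0.0321). The groups overlapped for the other two copies, with kcnj1a.2 at 4.93 ± 2.09 and 6.63 ± 1.88 CPM (adjusted p = 0.399) and kcnj1a.1 at 4.32 ± 1.09 and 4.81 ± 1.24 CPM (adjusted p = 0.747).

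Summed ionocyte markers had a higher mean in TCDD (1312 ± 139 CPM) than in DMSO (1034 ± 117 CPM), and the groups overlapped. Their summed level was 1173, 999, 1068 and 895 CPM in DMSO libraries 1 to 4 and 1379, 1471, 1232 and 1166 CPM in TCDD libraries 1 to 4. Of the 11 markers, all tested, 2 rose and 1 fell (27.3% called, against 5.72% of all genes tested). At an unadjusted p under 0.05, 4 were higher and 1 lower (45.5%, against 22% of all genes). The carbonic anhydrase gene ca2 (0.54 ± 0.12, adjusted p = 0.0197) and the ammonia transporter gene rhcgb (0.52 ± 0.11, adjusted p = 0.0156) rose, and the carbonic anhydrase gene ca15a fell (-0.89 ± 0.20, adjusted p = 0.0229). Leaving out DMSO 3 ended all 3 calls. That of ca2 was also lost without DMSO 4, that of rhcgb without TCDD 2, and that of ca15a without TCDD 1, TCDD 3 or TCDD 4. TCDD 3 was above every DMSO library in the ionocyte sum and within the DMSO range in the kcnj1a sum. TCDD 4 was below DMSO 1 in the ionocyte sum and above every DMSO library in the kcnj1a sum (98.2 CPM). The part of ionocyte number in the kcnj1a values was not tested.

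Among the other inward rectifiers no gene passed the test, and 4 with lower means in TCDD are described here. The gene kcnj13 encodes a weakly rectifying channel of epithelia and pigment cells that shapes stripe pattern in zebrafish. It was at 8.87, 8.22, 7.97 and 7.68 CPM in DMSO and 5.06, 5.96, 6.67 and 6.24 CPM in TCDD (-0.45 ± 0.14, adjusted p = 0.0771). Its groups did not overlap, and it was the only tested member entirely lower in TCDD, where 6.34% of all genes tested were. The pore subunit gene kcnj11 of the ATP-sensitive channel, which closes in energy-rich cells and acts in heart, was at 5.62 ± 1.13 and 4.02 ± 0.486 CPM (-0.48 ± 0.18, adjusted p = 0.142). The groups of kcnj11 overlapped through DMSO 4 (4.19 CPM) and TCDD 3 (4.74 CPM). The epithelial gene kcnj15 was at 8.88 ± 3.05 and 6.1 ± 0.978 CPM (adjusted p = 0.188), with DMSO 1 highest at 13.1 CPM. The ATP-sensitive subunit gene kcnj8, known from smooth muscle and pericytes, was at 1.18 ± 0.607 and 0.913 ± 0.439 CPM (adjusted p = 0.675). Summed smooth muscle and pericyte markers were at 551 ± 87.9 and 405 ± 34.7 CPM. Of the 10 markers 3 fell and 0 rose (30% called, against 5.72% of all genes tested). At an unadjusted p under 0.05, 5 were lower and 0 higher (50%, against 22% of all genes). DESeq2 called 5 lower and limma-voom 1, where they called 9.81% and 5.15% of all genes. The part of these markers' cell types in the kcnj8 values was not tested. The gene kcnj11l, named as a relative of kcnj11, was at 5.0 ± 1.36 and 4.9 ± 0.835 CPM (adjusted p = 0.948).

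The inward rectifiers opened by G proteins, through which acetylcholine slows the heart, did not pass. The subunit gene kcnj3b was at 2.32, 5.46, 4.96 and 5.31 CPM in DMSO and 5.47, 5.54, 5.87 and 8.36 CPM in TCDD (0.48 ± 0.25, adjusted p = 0.284). Its groups did not overlap, though DMSO 2 and TCDD 1 were 5.46 and 5.47 CPM. Its paralog kcnj3a was at 3.34 ± 1.1 and 3.09 ± 0.888 CPM (adjusted p = 0.847). The gene kcnj5, whose product is the partner best known from atrial cells of mammals, had 0 to 5 counts per library and was not tested.

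**Figure D3:**
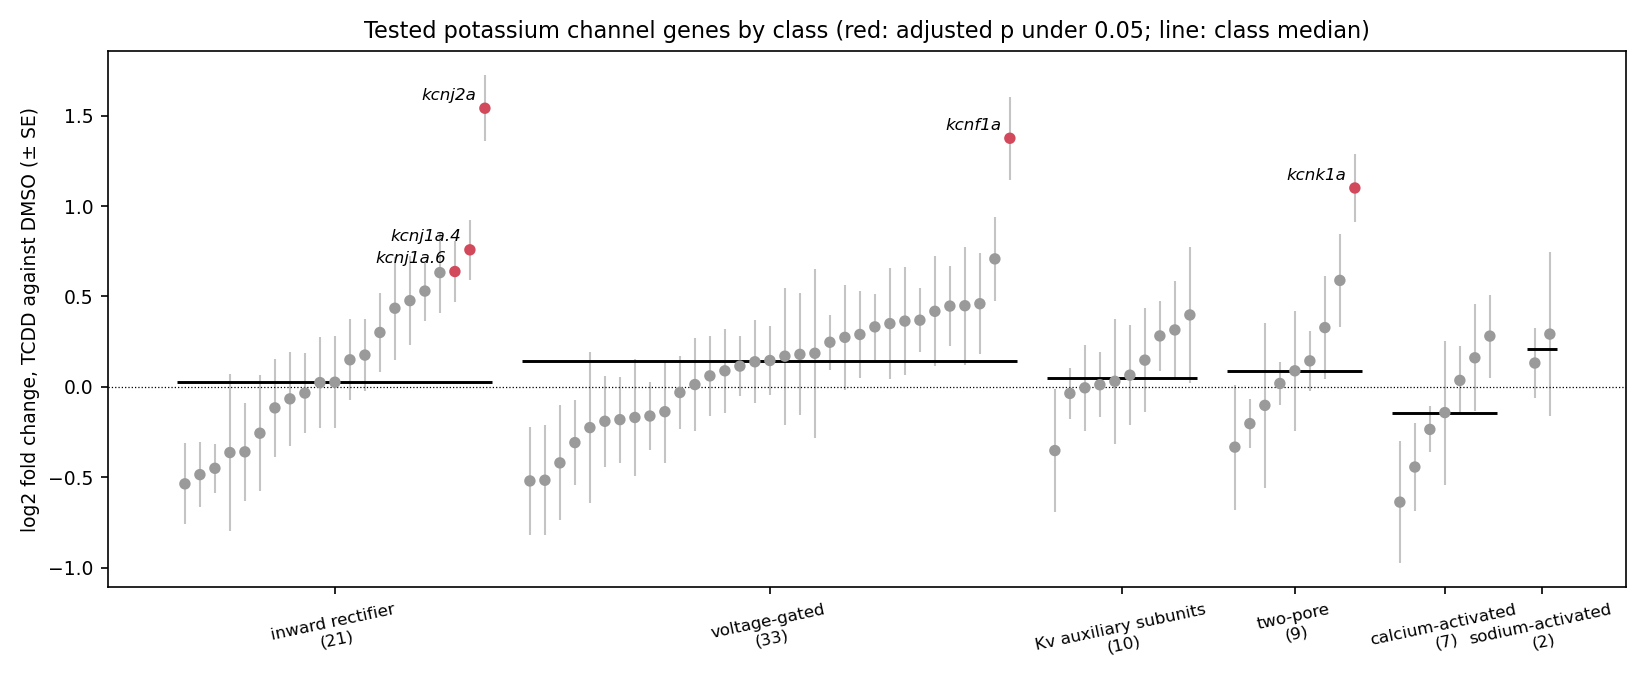
Log2 fold change of TCDD against DMSO ± SE for each of the 82 tested potassium channel genes, ordered within its class, with the class median as a line. The 5 genes called higher are red, and the class medians lie between -0.14 and 0.21.

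By class, 3 of 21 tested inward rectifiers, 1 of 33 voltage-gated channels, 1 of 9 two-pore channels and 0 of 7 calcium-activated channels rose, and 0 fell, where 2.99% of all genes rose and 2.73% fell. At an unadjusted p under 0.05 there were 8 inward rectifiers (5 higher, 3 lower), 2 voltage-gated and 2 two-pore channels (all higher) and 0 calcium-activated channels. In shares that is 38.1% of inward rectifiers, 6.06% of voltage-gated and 22.2% of two-pore channels, against 22% of all genes. The 8 inward rectifiers include the adjacent copies kcnj1a.3, kcnj1a.4, kcnj1a.5 and kcnj1a.6, whose values may not be independent. The 38.1% alone therefore does not show an excess in the class. The median log2 fold change was 0.03 for inward rectifiers, 0.15 for voltage-gated channels, 0.09 for two-pore channels and -0.14 for calcium-activated channels, so all 4 lay near the 0.00 of all genes. With library size alone, which moved the median of all genes to 0.13, that of voltage-gated channels was 0.26 and that of two-pore channels 0.20. Length offsets moved the median of all genes to 0.10 and that of two-pore channels to 0.27. With no filter, where all 21 genes count, the two-pore median was -0.20, and without TCDD 2 the calcium-activated median was 0.08. Without DMSO 1 the voltage-gated median was 0.04. The count of inward rectifiers called at an adjusted p under 0.05 also rested on the kcnj1a copies. It was 1 without DMSO 3 (where 2.52% of all genes were called), TCDD 1 (3.15%), TCDD 2 (2.79%) or TCDD 4 (4.66%), and also 1 without the pair of DMSO 1 and TCDD 2. It was 5 without TCDD 3 (3.64% of all genes). The difference between classes was not tested.

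Among the voltage-gated channels, kcnf1a (NCBI gene 557280) rose. It encodes a silent subunit that forms no channel alone and modifies channels of the kcnb type. Its values were 2.64, 1.48, 1.54 and 2.03 CPM in DMSO and 4.32, 5.47, 6.07 and 3.99 CPM in TCDD. All 4 TCDD libraries lay above the highest DMSO library, and the mean rose 2.59-fold, from 1.92 ± 0.536 to 4.96 ± 0.974 CPM (1.37 ± 0.23, adjusted p = 0.0058). It moved from rank 50 to rank 21 of the 118 members in TPM. Its paralog kcnf1b was at 0.91 ± 0.251 and 1.03 ± 0.386 CPM (0.18 ± 0.34, adjusted p = 0.801). The kcnb gene that could be tested, kcnb2, was at 5.55 ± 1.78 and 3.88 ± 1.77 CPM (-0.52 ± 0.30, adjusted p = 0.344). It was highest in DMSO 4 (8.17 CPM) and lowest in TCDD 2 (2.36 CPM). So were summed photoreceptor and lens markers (2200 and 41.2 CPM), and their part in the kcnb2 values was not tested. Of the 5 silent subunit genes of the kcng type, all tested, none was called, with a lowest adjusted p of 0.329.

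The kcnh genes include the ether-a-go-go related channels that end the cardiac action potential. The zebrafish heart gene kcnh6a was at 26, 21.9, 22.4 and 30.8 CPM in DMSO and 27.5, 37.1, 31.1 and 24.3 CPM in TCDD. The groups overlapped, and no difference was called (0.25 ± 0.15, 95% interval -0.09 to 0.58, adjusted p = 0.370). Its relative kcnh2a was at 0.959, 1.48, 1.26 and 1.68 CPM in DMSO and 2.57, 2.43, 2.0 and 1.87 CPM in TCDD (0.71 ± 0.23, adjusted p = 0.104). Its groups did not overlap. All 8 tested kcnh genes had a positive log2 fold change, with a median of 0.26. So did 52 of the 82 tested members and 10263 of all 20522 genes tested. DMSO 1 was the lowest DMSO library for 4 of the 8. None of the 8 was called, in DESeq2 or limma-voom either, and 1 (kcnh2a) had an unadjusted p under 0.05. The other 5 of the 13 kcnh genes had too few counts to test.

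The channel of the slow delayed rectifier current is encoded by kcnq1 genes. The copy kcnq1.1 was at 3.44, 3.98, 3.56 and 3.7 CPM in DMSO and 5.54, 6.44, 5.2 and 2.89 CPM in TCDD (0.45 ± 0.22, adjusted p = 0.266). TCDD 1, TCDD 2 and TCDD 3 were above the DMSO range and TCDD 4 was below it. TCDD 4 was also the lowest TCDD library for kcnj2a. The copy kcnq1.2 had 1 to 4 counts per library and was not tested.

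The channel genes of the fast transient outward current, kcnd1, kcnd2 and kcnd3, did not pass. The most abundant of them per length, kcnd3 (a mean of 2.22 TPM in DMSO), was at 7.59 to 18.6 CPM in DMSO and 11.4 to 17.6 CPM in TCDD (adjusted p = 0.773). Among the delayed rectifiers of fast-firing neurons, kcnc3a was the most abundant (a mean of 5.47 TPM over the 8 libraries, next to 6.74 TPM for kcnh6a). It was at 20.5, 41.6, 32.2 and 30.1 CPM in DMSO and 37.7, 36.9, 43.3 and 43.0 CPM in TCDD (0.37 ± 0.18, adjusted p = 0.245). DMSO 1 was the lowest library and DMSO 2 lay among the TCDD libraries. The neuronal gene kcnc1a was at 12.9 ± 5.05 and 11.4 ± 1.72 CPM (adjusted p = 0.708). None of the 5 tested kcna genes was called (lowest adjusted p 0.311).

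The attached subunits of voltage-gated channels showed no call in 10 genes tested, with a median of 0.05. None had an unadjusted p under 0.05, and DESeq2 and limma-voom also called 0. The beta subunit gene kcnab2b was at 3.62 ± 0.139 and 4.41 ± 1.08 CPM (adjusted p = 0.425). The calcium-binding partners of kcnd channels were the most abundant per length, at means of 8.95 TPM for kcnip3a and 6.98 TPM for kcnip1b. In CPM kcnip3a was at 12.5 to 17.9 and kcnip1b at 8.07 to 13.0 over the 8 libraries, with overlap. DMSO 1 was the lowest DMSO library for all 5 tested kcnip genes. The heart partner kcnip2 had 1 to 6 counts per library and could not be tested. The gene kcne4, whose product restrains kcnq1 channels in mammals, was at 0.912 ± 0.361 and 0.706 ± 0.176 CPM (adjusted p = 0.592).

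Among two-pore channels kcnk1a (NCBI gene 793480) rose. It encodes a weakly active background channel that is largely held inside cells. Its values were 1.44, 2.43, 1.96 and 2.03 CPM in DMSO and 4.59, 4.23, 4.07 and 4.05 CPM in TCDD. The TCDD libraries were close to each other and all above DMSO, with a rise of 2.14-fold from 1.96 ± 0.406 to 4.23 ± 0.25 CPM (1.1 ± 0.19, adjusted p = 0.0072). Its paralog kcnk1b was at 1.11 ± 0.543 and 1.19 ± 0.111 CPM (0.09 ± 0.33, adjusted p = 0.907). The difference between both copies was not tested.

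The other two-pore genes did not pass. The stretch-sensitive channel gene kcnk10a was at 0.799, 1.68, 1.89 and 1.4 CPM in DMSO and 1.89, 2.36, 2.13 and 2.38 CPM in TCDD (0.59 ± 0.26, adjusted p = 0.207). Its groups met without overlap, with DMSO 3 and TCDD 1 both at 1.89 CPM after rounding. The gene kcnk6 was at 13.2 to 15.5 CPM in DMSO and 12.6 to 15.9 CPM in TCDD. Its log2 fold change was 0.02 with a 95% interval of -0.24 to 0.28, the narrowest among the 82 tested members. The most abundant two-pore gene per length was kcnk5b (a mean of 4.35 TPM), known for its role in fin growth. It was at 9.79 ± 0.924 and 8.51 ± 1.0 CPM (adjusted p = 0.409), and kcnk5a was at 4.41 ± 0.513 and 4.87 ± 0.674 CPM (adjusted p = 0.659). The acid-sensitive heart channel kcnk3 was near the floor, with kcnk3b at 0.203 to 1.13 CPM over the 8 libraries and kcnk3a at 0 to 9 counts. Of the 21 two-pore genes 12 had too few counts to test.

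Calcium-activated channels showed no call in 7 genes, also in DESeq2 and limma-voom, and none had an unadjusted p under 0.05. The large-conductance channel gene kcnma1a, which couples calcium entry to repolarization in neurons and smooth muscle, was at 20.4, 43.3, 31.1 and 48.4 CPM in DMSO and 43.6, 36.2, 40.7 and 53.5 CPM in TCDD (0.28 ± 0.23, adjusted p = 0.515). DMSO 1 was the lowest and the groups overlapped. The small-conductance genes kcnn1a, kcnn2 and kcnn3, which shape the pause after a spike, had adjusted p of 0.935, 0.313 and 0.303. The intermediate-conductance gene kcnn4 was at 1.36 ± 0.305 and 0.87 ± 0.418 CPM, with the lowest log2 fold change of all members tested (-0.64 ± 0.34, adjusted p = 0.290). The sodium-activated genes kcnt1 and kcnt2 did not pass (adjusted p 0.758 and 0.743).

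In all, 8 of the 82 tested members (9.76%) were higher in every TCDD library than in every DMSO library, against 7.61% of all genes tested. They were the 5 called genes with kcnh2a, kcnj3b and kcnk10a.

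**Figure D4:**
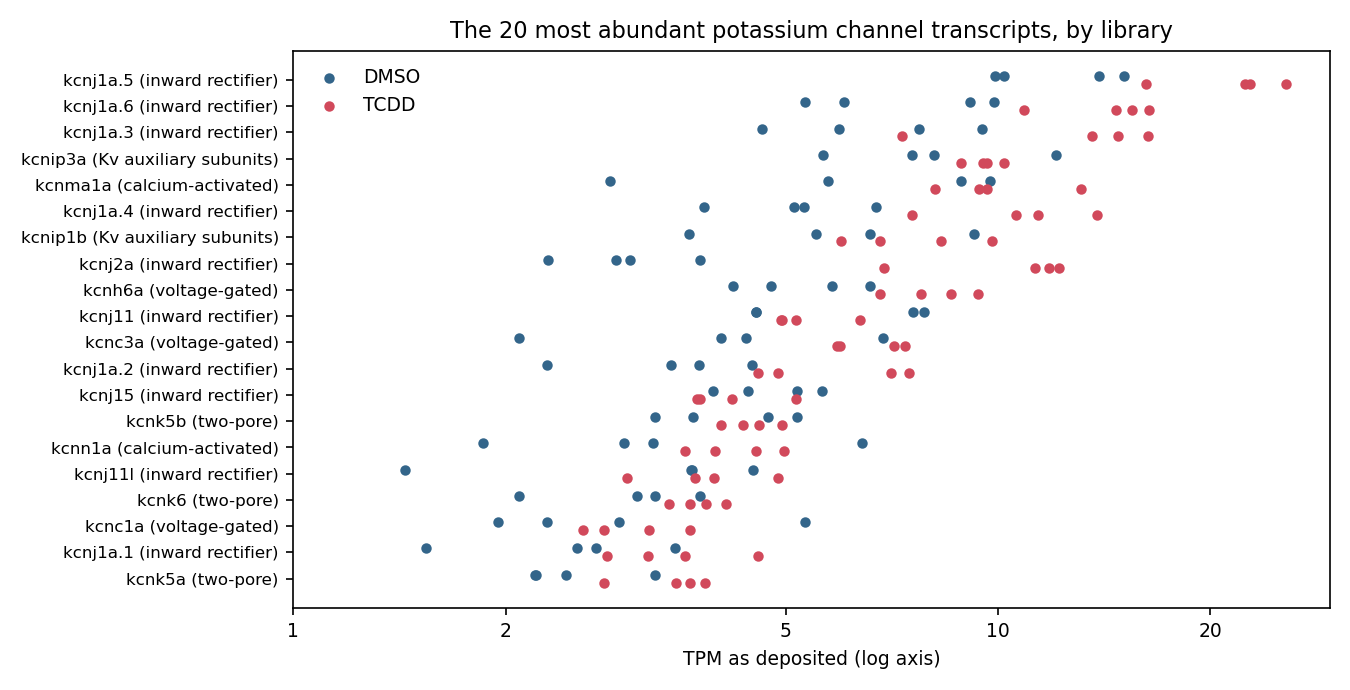
Deposited TPM of the 20 potassium channel genes with the highest mean TPM, on a log axis, 1 point per library. The TCDD points of kcnj2a (6.89 to 12.2 TPM) lie to the right of its DMSO points (2.3 to 3.77 TPM). TPM is not TMM-scaled, and the summed TPM of all 118 genes was 175 ± 45.9 in DMSO and 246 ± 13.1 in TCDD.

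Summed over the 118 genes, potassium channel transcripts were at 388, 507, 454 and 448 CPM in DMSO libraries 1 to 4 and 548, 529, 520 and 537 CPM in TCDD libraries 1 to 4. The groups did not overlap, and the mean was 449 ± 48.3 CPM in DMSO and 533 ± 12.2 CPM in TCDD. In TPM as deposited the sums of the 118 genes overlapped, with DMSO 2 at 234.3 TPM and TCDD 3 at 233.5 TPM. Of the class sums in CPM only that of inward rectifiers did not overlap, at 129 to 154 CPM in DMSO and 177 to 210 CPM in TCDD. That sum holds the kcnj1a genes (62.1 ± 7.24 and 92.3 ± 18.1 CPM) and kcnj2a. The sums of two-pore channels (39.6 to 44.7 and 42.1 to 46.4 CPM) and calcium-activated channels (42.3 to 74.2 and 56.2 to 80.3 CPM) overlapped.

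In length-scaled levels, which allow genes to be compared, inward rectifiers held 37.7% to 45.5% of the summed TPM of the 118 genes in DMSO and 42% to 49.3% in TCDD. Voltage-gated channels held 20.5% to 24.7% over the 8 libraries and calcium-activated channels 6.58% to 10.5%. Kv auxiliary subunits held 13.8% to 16.4% in DMSO and 12.1% to 13.6% in TCDD, without overlap. A share also depends on the other classes, and the Kv auxiliary sum itself was not lower in TCDD. It was 26.5 ± 8.51 TPM in DMSO and 32.2 ± 2.39 TPM in TCDD, and 40.1 ± 6.1 and 41.4 ± 2.92 in CPM. Two-pore channels held 10.4% to 11.5% in DMSO and 9.93% to 10.6% in TCDD. The most abundant transcript was kcnj1a.5, at a mean of 17.0 TPM over the 8 libraries, followed by kcnj1a.6 (11 TPM) and kcnj1a.3 (9.96 TPM). The 14 most abundant genes held 51.6% of the summed TPM, so most members were rare transcripts in this material.

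Neuron marker levels differed among the DMSO samples, and many channel genes were lowest in the same library. Summed neuron markers were at 898, 1749, 1284 and 1468 CPM in DMSO libraries 1 to 4 and 1316, 1163, 1374 and 1637 CPM in TCDD libraries 1 to 4. DMSO 1 was the lowest DMSO library for all 14 neuron markers and for 35 of the 82 tested potassium channel genes (42.7%), against 31.1% of all genes tested. Summed voltage-gated channels were at 129, 189, 156 and 164 CPM in DMSO and 178, 175, 190 and 179 CPM in TCDD, again lowest in DMSO 1. The groups overlapped in both sums. None of the neuron markers was called, 3 of 14 had an unadjusted p under 0.05, and DESeq2 called 1 higher and 1 lower. Among the 5 called genes, DMSO 1 was the lowest DMSO library for kcnk1a and kcnj1a.4 and the highest for kcnf1a. Without both DMSO 1 and TCDD 2, kcnj2a, kcnf1a and kcnk1a were still called, 3 of 83 tested members, where 2.99% of all genes were called in that fit. The part of neuron content in the values of any of these genes was not tested.

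**Figure D5:**
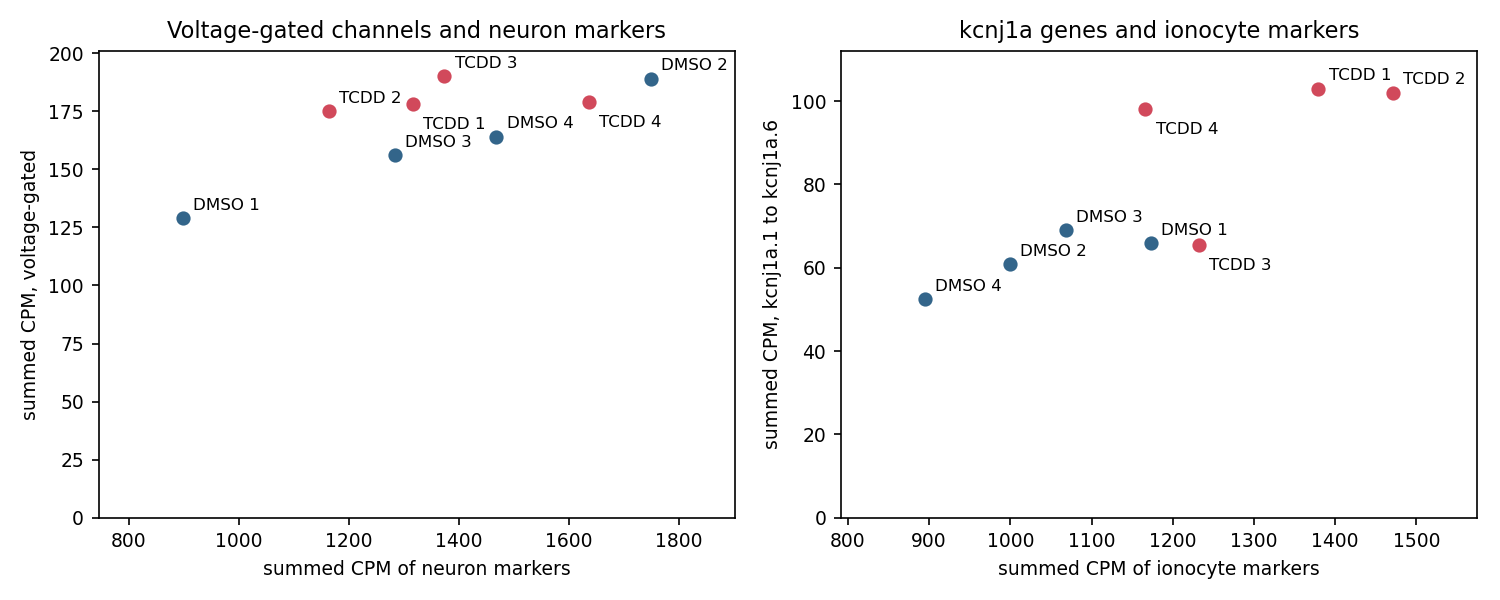
Summed CPM of voltage-gated channel genes against neuron markers (left) and of the 6 kcnj1a genes against ionocyte markers (right), 1 point per library, blue for DMSO and red for TCDD. DMSO 1 is lowest on both axes at left, and TCDD 3 lies with the DMSO libraries in its kcnj1a sum at right.

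Genes that act with potassium channels but carry other symbols were called in few cases, where 5.72% of all genes tested were called. In the 13 tested partner subunits, such as the sulfonylurea receptors of ATP-sensitive channels, 0 rose and 0 fell. The smallest adjusted p was that of the scaffold gene akap9, at 115 ± 17.6 CPM in DMSO and 144 ± 5.63 CPM in TCDD (0.32 ± 0.12, adjusted p = 0.134). None of 10 tested pacemaker and cyclic nucleotide-gated channels and none of 26 tested voltage-gated calcium channels was called. Without DMSO 2 akap9 was called (adjusted p = 0.0201). The smallest adjusted p in the pacemaker and calcium channel lists were those of cnga1b (0.180) and cacna2d3 (0.113, and 0.0479 without DMSO 2). At an unadjusted p under 0.05 there were 1, 1 and 2 genes in the 3 lists (7.69%, 10% and 7.69%), against 22% of all genes. DESeq2 and limma-voom called 0 in each, where they called 9.81% and 5.15% of all genes.

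Among 11 tested voltage-gated sodium channel genes 0 rose and 1 (9.09%) fell, where 2.73% of all genes tested fell. At an unadjusted p under 0.05 there were 2 (18.2%, against 22% of all genes), 1 higher and 1 lower. The gene that fell was scn4ab, the channel of skeletal muscle. It was at 29.5, 37.3, 32.4 and 30.2 CPM in DMSO and 25.3, 21.4, 25.3 and 21.6 CPM in TCDD, without overlap (-0.47 ± 0.12, adjusted p = 0.0359). Its call held in 8 of 19 alternatives. It was lost with library size alone (adjusted p = 0.186), the replicate block (0.0561) and length offsets (0.051), without the pair of DMSO 1 and TCDD 2, and without any 1 library other than DMSO 1. Of 21 tested genes of the sodium-potassium pump, which restores the potassium gradient, 2 (9.52%) fell and 0 rose, where 5.72% of all genes tested were called. Both encode small regulators of the pump, fxyd5 from 8.62 ± 1.1 to 5.39 ± 0.513 CPM (-0.67 ± 0.15, adjusted p = 0.0197) and fxyd6l from 80.3 ± 4.9 to 61.2 ± 3.62 CPM (-0.39 ± 0.09, adjusted p = 0.0334). The call of fxyd5 was lost with length offsets (adjusted p = 0.126) and without TCDD 1 or TCDD 3. That of fxyd6l held in 9 of 19 alternatives. It was lost with length offsets (adjusted p = 0.647), library size alone (0.165) and the replicate block (0.059), without the pair of DMSO 1 and TCDD 2, and without DMSO 3, DMSO 4 or any TCDD library. At an unadjusted p under 0.05, 3 pump genes were higher and 3 lower (28.6%, against 22% of all genes). DESeq2 called 1 pump gene higher and 2 lower, and limma-voom 0 and 2. The pump subunit gene atp1a1a.2 did not pass (adjusted p = 0.0712). It was at 284 ± 33 CPM in DMSO and 400 ± 63.5 CPM in TCDD, higher in TCDD without overlap. The summed markers of skeletal muscle, where scn4ab is known to act, were at 15153 ± 3689 CPM in DMSO and 12787 ± 1952 CPM in TCDD, with 0 of 14 called and 3 at an unadjusted p under 0.05, and their part in its fall was not tested.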

How the data were processed

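RNA of 8 samples was sequenced, 4 per group, and each deposited file lists 25725 genes by NCBI gene identifier and symbol. The authors deposited for each gene an expected count, which is unnormalized and has a fraction in 11.43% to 11.98% of genes. They also deposited a TPM and an FPKM per gene, which are scaled for transcript length and depth by the authors. Bowtie2 and the GRCz11 assembly are named in the submitters' processing notes. The tool that made the counts is not given in the sources used here. For synonyms and gene order, 117 of the 118 members were found by identifier in a gene table of the GRCz12tu assembly. Coordinates are left out because the assemblies differ.

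After rounding, the whole table was fitted with edgeR 4.0.16 in R 4.3.3 (filterByExpr with a minimum count of 10, or 0.694 CPM, in 4 samples, TMM factors, robust quasi-likelihood F-test, two-sided). The SE is the log2 fold change over the square root of F. The biological coefficient of variation was 18.3%. Transcript lengths were implied from count and FPKM, for the length offsets only. The floor of 3 counts covers counting error only, because the reads carry no molecular identifiers. No library was a copy of another: replicates differed by a chi-square of at least 9.0 per degree of freedom.

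Members, classes and lists were chosen with earlier results of these data known. Of the genes in the marker and excitability lists, 251 were found by symbol and 7 by synonym. Named genes were the called members, the 3 with the smallest p and the 3 with the highest TPM in each class, the channels known from heart (21 genes found), and the called or smallest-p genes of each excitability list. The genes kcnj16, kcnj13, kcnj15, kcnj1a.1, kcnj1a.2, kcnb2, kcnk1b, kcnf1b, kcnd1 and atp1a1a.2 were added after their values were seen, as were the called markers. Summed levels were described and not tested.

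Same-numbered samples did not pair: their deviations correlated at -0.293, -0.217, 0.0942 and 0.277. The alternatives were other tests (DESeq2 1.42.0, limma-voom from limma 3.58.1, edgeR with robust estimation off), other scalings (RLE, upper quartile, library size alone), other filters (none, or 1 CPM in 4 samples), the replicate block, length offsets (lowess, span 0.3) and libraries left out. Summaries and plots were made in Python 3.11.15 with pandas 2.3.3, numpy 2.4.6, matplotlib 3.10.9 and SciPy 1.17.1.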

Additional observations from a re-analysis of the deposited data

Results flagged for a closer look

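In 14 of 150 groups of 4 values that were checked, 1 library lay far from the other 3 by Dixon's criterion. Chance gives about 1 in 20 for independent groups, while the groups checked shared libraries and some genes. TCDD 3 was the library apart in 5 of the 14. It was low for kcnj1a.5 (22.2 CPM), for the summed kcnj1a.1 to kcnj1a.6 (65.4 CPM), for the summed inward rectifiers (98.1 TPM) and for kcnk5a (3.87 CPM), and high for kcnj11 (4.74 CPM). The gene kcnj1a.5 is part of both sums. DMSO 1 was low for kcnj3b (2.32 CPM) and kcnj11l (2.96 CPM). TCDD 4 was high for kcnj3b (8.36 CPM) and low for kcnip3b (1.22 CPM). TCDD 2 was low for kcnh2b (0.277 CPM), and DMSO 2 was high for kcnj5 (0.135 CPM, which is 2 counts) and kcnd1 (6.0 CPM). DMSO 4 was low for kcnj16 (2.58 CPM) and high for cnga1b (2.37 CPM).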

How the results depend on the processing

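The calls of kcnj2a, kcnf1a and kcnk1a held in all 19 alternatives, with log2 fold changes of 1.444 to 1.717, 1.26 to 1.556 and 0.98 to 1.258, and no member was called lower in any. Over all genes 1174 were called, 2014 in DESeq2, 616 without both DMSO 1 and TCDD 2, and 523 to 1854 with 1 library left out. Members called higher were 3 without both of these libraries and 3 to 7 with 1 library left out, and inward rectifiers called were 1 and 1 to 5. The median of voltage-gated channels was 0.264 with library size alone, 0.043 without DMSO 1 and 0.219 without DMSO 2. That of two-pore channels was 0.203 with library size alone, 0.273 with length offsets and -0.203 with no filter, where all 21 genes count. That of calcium-activated channels was -0.252 to 0.080 with 1 library left out.

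Genes that were not called changed sign in some alternatives, and the cause was not tested. With library size alone the log2 fold change was 0.079 for kcnip3a, 0.080 for kcnj11l, 0.036 for kcnk3b and 0.061 for kcnj16. With length offsets it was 0.104 for kcne4, 0.059 for kcnip3a, 0.112 for kcnj11l, 0.059 for kcnk3b and 0.053 for kcnj16, and with upper quartile factors -0.003 for kcnip1b. Without both DMSO 1 and TCDD 2 it was 0.122 for kcnk3b, -0.055 for kcnk6, -0.039 for kcnn1a, 0.018 for kcnj16, -0.126 for kcnj1a.1 and -0.090 for kcnk1b. With 1 library left out the ranges were -0.361 to 0.098 for kcnc1a, -0.102 to 0.561 for kcnd2, -0.044 to 0.357 for kcnd3 and -0.105 to 0.137 for kcnip1b. They were -0.109 to 0.051 for kcnip3a, -0.212 to 0.053 for kcnj11l, -0.334 to 0.079 for kcnj3a and -0.410 to 0.206 for kcnk3b. Those of kcnk6 and kcnn1a were -0.026 to 0.087 and -0.088 to 0.224. They were -0.050 to 0.378 for kcnf1b, -0.259 to 0.095 for kcnj16, -0.038 to 0.325 for kcnj1a.1 and -0.117 to 0.428 for kcnk1b. The other genes tested and given with a fold change kept their sign in the alternatives that gave them a value.

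With the replicate number as a block, 1347 genes and 4 members were called, and kcnj1a.6 had an adjusted p of 0.0561. The labels give no meaning to the number, and samples did not all correlate best with their own number. The filter of 1 CPM in 4 samples gave no value for kcnab2a, kcne4, kcnf1b, kcnk3b and cnga1b, and leaving out both DMSO 1 and TCDD 2 gave none for kcnj8. Depth limits the 36 members not tested, for which differences were not detectable.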
